A study of Cricetulus griseus with 16 samples.

Results

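The IER and CSRNP genes form a small group of immediate early genes and their relatives. Of the 20824 genes in the read counts of Chinese hamster ovary (CHO) cells, 7 belong to it by gene name: Ier2 (ENSCGRG00001015864), Ier3 (ENSCGRG00001019584), Ier5 (ENSCGRG00001009187), Ier5l (ENSCGRG00001010079), Csrnp1 (ENSCGRG00001003977), Csrnp2 (ENSCGRG00001010089) and Csrnp3 (ENSCGRG00001016696). All 7 were found, 6 of them had reads, and the same 6 passed the filter on low counts in every comparison. The set was chosen because of the measured heat responses of Ier5l and Csrnp1 in these libraries, so the values of this pair are given as a description without a test. Ier2, Ier3, Ier5 and Csrnp2 were tested.

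Immediate early genes are transcribed within minutes of a stimulus without new protein synthesis, and their messages are usually short-lived. IER2, IER5 and IER5L share a conserved N-terminal IER domain. IER5 binds the B55 subunits of protein phosphatase 2A together with heat shock factor 1 (HSF1), the regulator of heat shock protein genes, and promotes dephosphorylation of HSF1. IER3, also known as IEX-1, carries a similar name but is not related in sequence, and it takes part in the control of apoptosis and ERK signaling. The CSRNP proteins are cysteine- and serine-rich nuclear proteins that bind DNA and activate transcription. CSRNP1 was first named AXUD1, for its induction by AXIN1.

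CHO (ATCC CCL-61) is an established, immortalized Chinese hamster ovary line. It was kept unheated at 37 °C or exposed to mild heat, which was 40 °C lasting either 1 h or 6 h, or to moderate heat, which was 1 h at 42.5 °C. No genetic change or other agent separated the groups. The labels give letters A to D in each of the 4 groups, which the study describes as 4 biological repeats, 16 RNA-seq libraries in all. The study asked how cells answer heat doses of different length and intensity.

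Total counts were between 10504192 and 14668365 per library. Levels are given as CPM, the count per 1000000 counts of a library, scaled with TMM factors over all 16 libraries. Vim, a mesenchymal marker, was at 1823 to 2684 CPM, whereas Col1a1, Col1a2 and Cdh2 stayed under 1 CPM. The epithelial marker Cdh1 was at 1.70 to 4.14 CPM, and neither Epcam nor the leukocyte marker Ptprc reached 0.1 CPM. The study excluded a control library, taken here to be replicate D at 37 °C. Across 10565 genes, the log2 CPM of replicate D correlated with those of replicates A, B and C with Pearson's r between 0.974 and 0.976, against 0.995 to 0.996 among these 3. Means and tests therefore used 3 control libraries and 4 of each heated group, and the value in replicate D stands beside them.

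Comparisons were made with the quasi-likelihood test of edgeR, each on its own groups. Differentially expressed genes (DEGs), also termed called genes, had an adjusted p under 0.05 (Benjamini-Hochberg, over all genes tested) and a change of 1.5-fold or more. These p values weigh the difference between groups against the spread between the repeats, which are cultures of 1 cell line. In bulk RNA a lower level can come from fewer expressing cells or from less RNA per cell, which cannot be told apart.

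In the main comparisons with 37 °C, Ier2 was the IER domain gene called as lower. In CPM, its level at 37 °C was 7.02, 6.64 and 8.71 in replicates A, B and C and 7.12 in replicate D. After 1 h at 40 °C it was 7.07, 7.14, 8.40 and 7.29, which overlapped the controls. The libraries of 40 °C, 6 h held 4.502, 5.23, 4.42 and 4.60, and after 1 h at 42.5 °C it was 3.07, 3.16, 3.20 and 3.63. All 4 libraries of each of these last groups lay under every control library, replicate D included, and the groups did not overlap each other. The mean was 7.46 ± 1.10 CPM (SD, n = 3) at 37 °C, 4.69 ± 0.37 CPM (SD, n = 4) after 6 h at 40 °C and 3.26 ± 0.25 CPM (SD, n = 4) at 42.5 °C.

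Against 37 °C, the log2 fold change of Ier2 was -0.66 (SE 0.14, adjusted p = 0.00202) after 6 h at 40 °C. At 42.5 °C it was -1.18 (SE 0.15, adjusted p = 1.61e-05), or 2.27-fold lower. After 1 h at 40 °C it was 0.01, with a 95% interval of -0.25 to 0.28 (adjusted p = 0.98). Ier2 was called at 42.5 °C in all 13 alternative settings tried and after 6 h at 40 °C in 12 of 13. Without replicate C at 37 °C, the highest control, its log2 fold change after 6 h was -0.54, less than 1.5-fold. The counts behind these values were low, between 32 and 104 per library.

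Ier5, which encodes the HSF1-binding member of the family, was lower on average after 6 h at 40 °C and at 42.5 °C, without passing the limit of 1.5-fold. Its level at 37 °C was 10.9, 7.59 and 8.11 CPM in replicates A, B and C and 8.90 CPM in replicate D. After 1 h at 40 °C it was 7.75, 11.7, 7.67 and 9.46 CPM. After 6 h at 40 °C it was 6.00, 4.83, 7.65 and 5.93 CPM, and at 42.5 °C it was 6.68, 7.70, 6.98 and 4.89 CPM. The highest library of each of these last groups overlapped the lowest control library. The SD of Ier5 was 18.2 to 20.9% of its mean within groups, against 9.1 to 11.8% from counting error alone.

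The log2 fold change of Ier5 against 37 °C was 0.03 (SE 0.16, adjusted p = 0.949) after 1 h at 40 °C, with a 95% interval of -0.31 to 0.38. At 40 °C, 6 h it was -0.55 (SE 0.16, adjusted p = 0.0149), and at 42.5 °C it was -0.47 (SE 0.16, adjusted p = 0.0291). With replicate D among the controls both values lost significance (adjusted p = 0.0615 and 0.0972). The value after 6 h at 40 °C depended on single libraries. Without 37 °C replicate A, the highest control, it was -0.36 (adjusted p = 0.143), whereas without 37 °C replicate B or C, or without 40 °C, 6 h replicate C, Ier5 was a DEG, at -0.65, -0.61 and -0.68. At 42.5 °C it was -0.28 (adjusted p = 0.213) without 37 °C replicate A and -0.33 (adjusted p = 0.0832) without 42.5 °C replicate D. In the replicate block fit, which adds a term for the letters A to D, it was -0.33 (adjusted p = 0.0628). With 37 °C replicate D left out, letter D held only 42.5 °C replicate D, so this fit is not a separate check from leaving that library out.

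Ier5l, the least characterized of the IER domain genes, was higher after 1 h at 40 °C than in any other group. In CPM it was 5.33, 5.76 and 5.69 at 37 °C in replicates A, B and C, and 8.28 in replicate D. The libraries of 40 °C, 1 h held 11.8, 10.6, 12.2 and 11.5 CPM, all above every other library. After 6 h at 40 °C its level was 6.97, 8.31, 8.52 and 7.02 CPM, and at 42.5 °C it was 6.96, 8.19, 7.56 and 6.71 CPM. These groups overlapped each other and lay above control replicates A, B and C, whereas replicate D lay above 6 of the 8 heated libraries.

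Since Ier5l was chosen by these values, its fold changes carry no test. The log2 fold change against 37 °C was 1.04 (SE 0.11), or 2.06-fold, after 1 h at 40 °C, 0.46 (SE 0.13) after 6 h at 40 °C and 0.38 (SE 0.13) at 42.5 °C. With all 4 control libraries the value at 40 °C, 1 h was lower, at 0.89 (SE 0.14). The values after 6 h at 40 °C and at 42.5 °C were then 0.30 and 0.24.

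**Figure D1:**
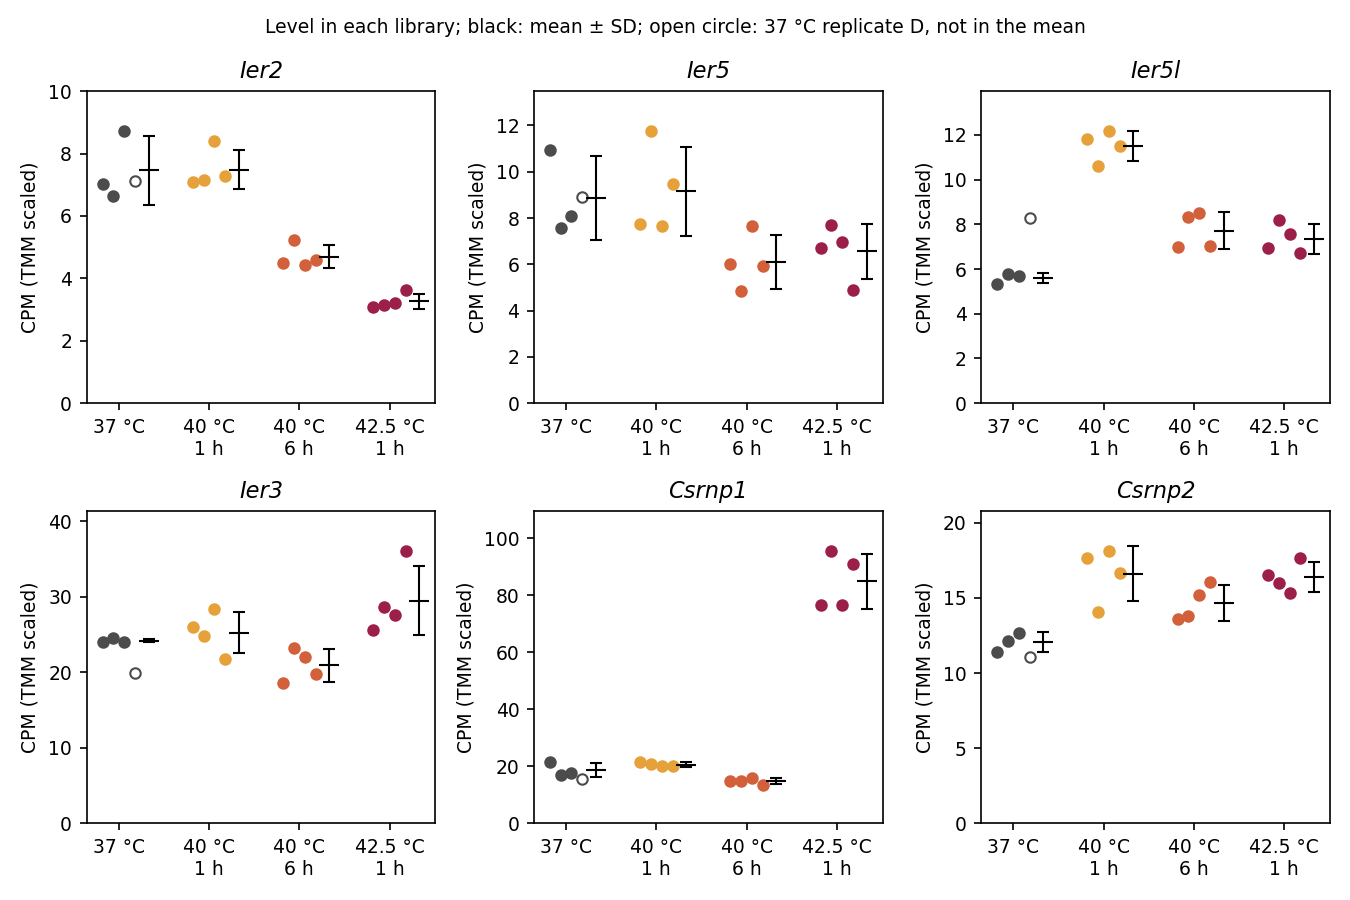
Level of the 6 members with reads in each library, in TMM-scaled CPM on axes that start at 0, with 1 panel per gene and the groups along the x axis. Filled circles are libraries, open circles are 37 °C replicate D, and the black marks are the mean ± SD without it (3 libraries at 37 °C, 4 in each heated group); Ier5l is highest at 40 °C, 1 h and Csrnp1 at 42.5 °C, 1 h, whereas Ier2 is lowest at 42.5 °C, 1 h.

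Ier3, the apoptosis regulator that shares only its name with the others, stayed under the fold limit in every comparison. Its level was 24.1, 24.5 and 24.1 CPM in the control replicates A, B and C and 19.9 CPM in replicate D. It was 26.04, 24.9, 28.4 and 21.8 CPM after 1 h at 40 °C, 18.5, 23.3, 22.0 and 19.8 CPM after 6 h at 40 °C, and 25.6, 28.7, 27.5 and 36.1 CPM at 42.5 °C. The libraries of 40 °C, 6 h lay under and those of 42.5 °C above control replicates A, B and C, and replicate D fell within the range of 40 °C, 6 h. The log2 fold change was 0.06 (95% interval -0.12 to 0.24, adjusted p = 0.79) after 1 h at 40 °C and -0.21 (SE 0.09, adjusted p = 0.0688) after 6 h. At 42.5 °C it was 0.28 (SE 0.10, adjusted p = 0.0301), or 1.22-fold, which is under the fold limit and had an adjusted p of 0.0769 with all 4 controls. Without 42.5 °C replicate D, the highest library, it was 0.17 (adjusted p = 0.089). The replicate block fit, which is not a separate check here either, gave 0.16 (adjusted p = 0.0878). The SD of Ier3 over control replicates A, B and C was 1.06% of the mean, less than the 5.6% that counting error alone gives.

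Csrnp1 was the member with the largest difference between groups. Its counts at 37 °C were 306, 230, 203 and 174 in replicates A to D, and 317, 271, 246 and 257 after 1 h at 40 °C. After 6 h at 40 °C they were 168, 188, 203 and 170, whereas at 42.5 °C they were 846, 967, 791 and 1152. In CPM, the 37 °C replicates A, B and C were at 21.5, 16.8 and 17.5 and replicate D at 15.5, and the libraries of 42.5 °C were at 76.4, 95.5, 76.7 and 90.9. Every library at 42.5 °C lay above every library of the other groups.

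After 1 h at 40 °C the level of Csrnp1 was 21.6, 20.8, 20.1 and 19.9 CPM, which overlapped the controls. After 6 h at 40 °C it was 14.8, 14.9, 16.01 and 13.2 CPM, under control replicates A, B and C but overlapping replicate D. Its values at 42.5 °C chose the gene, so no test is given. The log2 fold change against 37 °C was 2.18 (SE 0.10), or 4.53-fold, at 42.5 °C, 0.15 (SE 0.09) after 1 h at 40 °C and -0.34 (SE 0.10) after 6 h. At 42.5 °C it stayed between 2.11 and 2.30 over the 13 alternative settings.

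Csrnp2, a paralog of Csrnp1, was higher in every heated group by less than the fold limit. Its level was 11.4, 12.1 and 12.7 CPM in control replicates A, B and C and 11.04 CPM in replicate D. It was 17.7, 14.1, 18.1 and 16.7 CPM after 1 h at 40 °C, 13.6, 13.8, 15.2 and 16.1 CPM after 6 h at 40 °C, and 16.5, 15.99, 15.3 and 17.7 CPM at 42.5 °C. All 12 heated libraries lay above all 4 control libraries. The log2 fold change was 0.47 (SE 0.10, adjusted p = 0.0302) after 1 h at 40 °C, 0.28 (SE 0.10, adjusted p = 0.038) after 6 h and 0.44 (SE 0.09, adjusted p = 0.00129), or 1.36-fold, at 42.5 °C. With all 4 controls the adjusted p was 0.181, 0.0692 and 0.00678 in the same order. Over the 13 alternative settings it lay between 0.00364 and 0.181 after 1 h at 40 °C and between 0.026 and 0.142 after 6 h. Without 37 °C replicate A alone it was 0.13 and 0.142 there. At 42.5 °C it stayed at or under 0.0101 in all 13 settings.

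Csrnp3, the remaining paralog, had 0 counts in all 16 libraries. A floor of 3 counts corresponds to 0.205 to 0.286 CPM, so a level under this limit was not detectable at this depth. This floor covers counting error only.

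The order of the groups by mean level differed between the members, and several neighbours in it could not be separated by their libraries. For Ier2 it was 42.5 °C, 40 °C for 6 h, and then 37 °C and 40 °C, 1 h, where only the last pair overlapped. For Ier5 every pair of neighbours overlapped. For Ier5l the order was 37 °C, 42.5 °C, 40 °C, 6 h, and 40 °C, 1 h, where 42.5 °C and 40 °C, 6 h overlapped. For Csrnp1 it was 40 °C for 6 h, 37 °C, 40 °C, 1 h, and 42.5 °C, where 37 °C and 40 °C, 1 h overlapped. These orders leave out replicate D.

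Counted over Ier2, Ier3, Ier5 and Csrnp2, no member was called after 1 h at 40 °C. The share of DEGs among all genes tested was 0.334% there, with 0.276% in the higher and 0.0572% in the lower direction. At 40 °C, 6 h 1 member was called, Ier2, which was lower, beside a share of 3.11% of all genes, with 1.45% in the higher and 1.66% in the lower direction. At 42.5 °C Ier2 was called, which was lower, beside 7.51% of all genes. The higher DEGs made up 2.83% and the lower DEGs 4.68% of all genes tested there. Because the set was chosen on the responses of Ier5l and Csrnp1, that pair is left out of these counts. As a description that includes the pair, the median log2 fold change of the 6 members was 0.10, -0.28 and 0.33 in the same order. The median over all genes tested was 0 in each comparison.

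The heated groups were also compared directly. Between 6 h and 1 h at 40 °C, Ier2 was lower after the longer exposure (log2 fold change -0.67, SE 0.12, adjusted p = 0.0014). It was the 1 member called, beside 1.28% of all genes. Ier5 was at -0.58 (SE 0.16, adjusted p = 0.0168), just under the fold limit, and it was a DEG without the low count filter and by DESeq2's Wald test, each at -0.59. It was also a DEG without 40 °C, 1 h replicate A or C or 40 °C, 6 h replicate C (-0.66, -0.65 and -0.71). Without 40 °C, 1 h replicate B it was -0.44 (adjusted p = 0.0615) and without 40 °C, 6 h replicate B -0.48 (adjusted p = 0.0625). Ier3 was at -0.27 (SE 0.09, adjusted p = 0.0476) and Csrnp2 at -0.18 (95% interval -0.38 to 0.02, adjusted p = 0.206). As a description, Ier5l was at -0.58 (SE 0.10) and Csrnp1 at -0.48 (SE 0.08).

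At the same length of 1 h, 42.5 °C was compared with 40 °C, where 5.27% of all genes were DEGs. Of the 4 genes tested, Ier2 was called, and it was lower at 42.5 °C (log2 fold change -1.19, SE 0.13, adjusted p = 4.78e-06), 2.28-fold. Ier5 was at -0.50 (SE 0.16, adjusted p = 0.0235), under the fold limit, and at -0.36 without 40 °C, 1 h replicate B (adjusted p = 0.0863) or 42.5 °C replicate D (adjusted p = 0.0854). No difference passed for Ier3 at 0.22 (95% interval 0.00 to 0.44, adjusted p = 0.104) or for Csrnp2 at -0.03 (95% interval -0.22 to 0.17, adjusted p = 0.853). As a description, Ier5l was at -0.66 (SE 0.10) and Csrnp1 at 2.03 (SE 0.08), values that belong to the responses the pair was chosen on.

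Between moderate heat and 40 °C, 6 h, 8.25% of all genes were DEGs. No gene of the 4 tested passed both limits there by edgeR or by DESeq2's Wald test. By edgeR 2, Ier2 and Ier3, had an unadjusted p under 0.05, beside 53.9% of all genes tested. Ier2 was lower at 42.5 °C, at -0.52 (SE 0.14, adjusted p = 0.007) and Ier3 higher by 0.49 (SE 0.10, adjusted p = 0.000829), each under the fold limit. Ier5 was at 0.08 (95% interval -0.25 to 0.42, adjusted p = 0.692) and Csrnp2 at 0.15 (95% interval -0.03 to 0.34, adjusted p = 0.168). As a description, Ier5l was at -0.08 (SE 0.12) and Csrnp1 at 2.52 (SE 0.08).

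**Figure D2:**
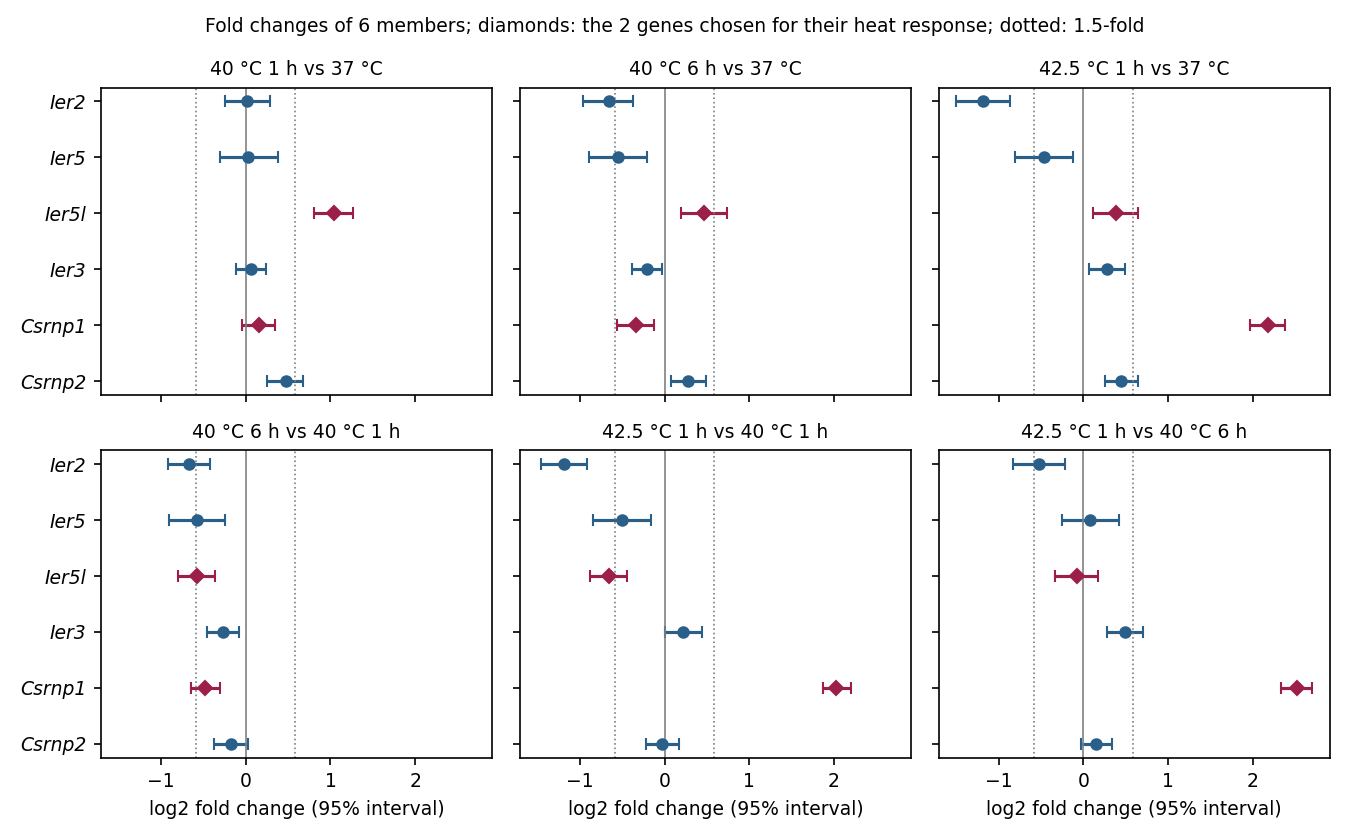
Fold changes of the 6 members in the 6 comparisons, as log2 with 95% intervals from the edgeR fit, 1 panel per comparison; diamonds are Ier5l and Csrnp1, which were chosen by their heat response, and dotted lines mark 1.5-fold. Ier2 lies left of zero in every panel except 40 °C, 1 h against 37 °C, and Csrnp1 lies near 2 or above in the 3 panels with 42.5 °C.

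The other immediate early genes were described from a list of 52 names, of which 51 were found, chosen with earlier results of these data known. After 1 h at 40 °C, 46 of them were tested. Jun, a subunit of the transcription factor AP-1, and Dusp1, a phosphatase of MAP kinases, rose, and Plk2, a polo-like kinase, fell. These are 6.52% of the list genes tested, beside 0.334% of all genes, and the median log2 fold change was -0.01. With all 4 controls 1 gene of 46 was called, in the lower direction, beside 0.0287% of all genes.

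After 6 h at 40 °C, 45 were tested, of which 2 rose (Fosl2 and Nr4a3) and 8 fell (Egr1, Egr2, Egr3, Atf3, Dusp5, Ccn1, Maff and Phlda1). These are 22.2% of the list genes tested, beside 3.11% of all genes, and the median was -0.21. With all 4 controls 6 were called, 1 higher and 5 lower, beside 2.09% of all genes. At 42.5 °C, 47 were tested, of which 20 rose and 5 fell (Klf2, Gadd45b, Rhob, Per1 and Plk2), with a median of 0.51. The called genes were 53.2% of them, beside 7.51% of all genes. With all 4 controls 27 of 46 were called, 22 higher and 5 lower, beside 6.14% of all genes. The members Ier2 and Csrnp1 thus moved in opposite directions beside a list in which both directions occurred.

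Fos, another AP-1 subunit, was at a log2 value of 4.95 (SE 0.21, adjusted p = 1.91e-10) at 42.5 °C and 1.16 (SE 0.32, adjusted p = 0.0944) after 1 h at 40 °C. At 40 °C, 6 h it did not pass the count filter. Egr1, a zinc finger transcription factor, was at -0.53 (SE 0.09, adjusted p = 0.00752) after 1 h at 40 °C, at -1.58 (SE 0.10, adjusted p = 3.8e-08) after 6 h and at 2.03 (SE 0.11, adjusted p = 3e-09) at 42.5 °C. Csrnp1 was likewise lower on average after 6 h at 40 °C and higher at 42.5 °C, at -0.34 and 2.18.

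Jun was at 1.04 (adjusted p = 0.00414), -0.13 (adjusted p = 0.0862) and 1.16 (adjusted p = 1.29e-08) after 1 h and 6 h at 40 °C and at 42.5 °C, and Dusp1 at 0.60 (adjusted p = 0.02), -0.22 (adjusted p = 0.0331) and 2.29 (adjusted p = 1.49e-08). Atf3, a stress-induced transcription factor, was at -0.18 (adjusted p = 0.735), -0.62 (adjusted p = 0.0204) and 1.47 (adjusted p = 5.41e-05). The nuclear receptor Nr4a1 was at -0.01 (adjusted p = 0.98), -0.14 (adjusted p = 0.611) and 1.17 (adjusted p = 3.29e-05). All 4 of these genes rose at 42.5 °C, where Ier2 fell.

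**Figure D3:**
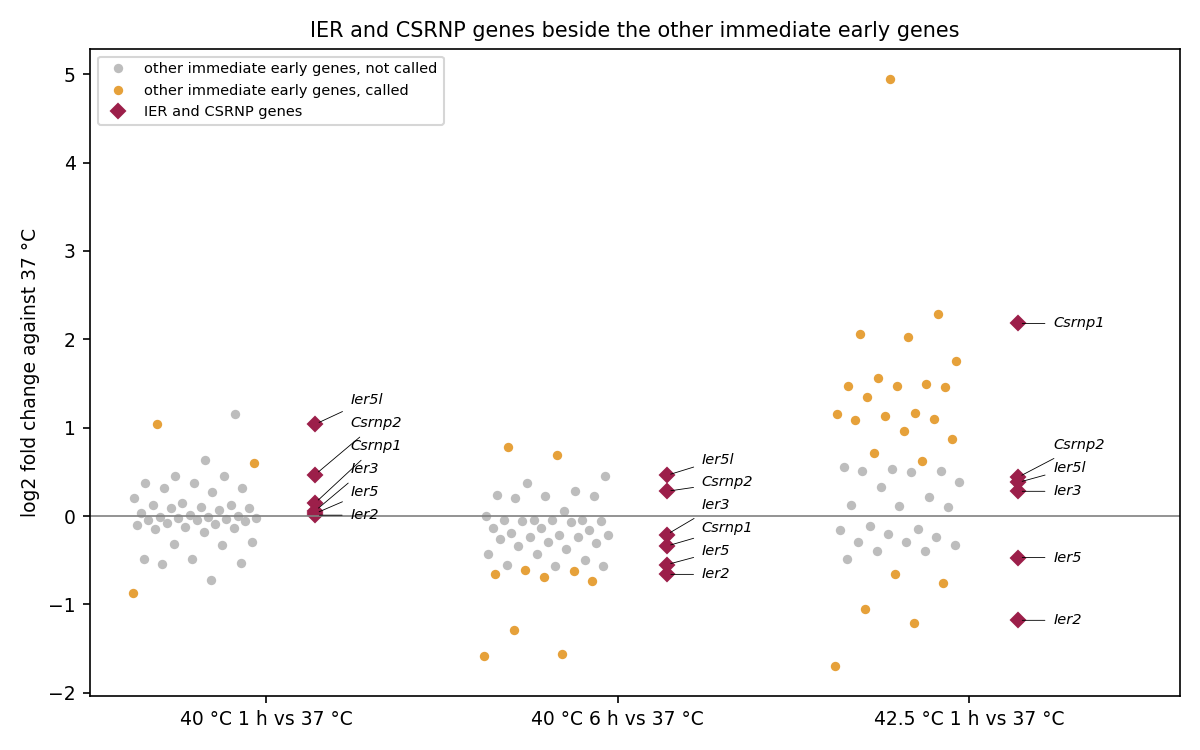
Log2 fold changes against 37 °C of the other immediate early genes (circles, orange where called as DEGs) and of the 6 members (diamonds, named) in the 3 comparisons, 1 circle per gene tested. At 42.5 °C, 20 of the 47 other genes were called higher and 5 lower, beside 2.83% and 4.68% of all genes. The members spread from -1.18 for Ier2 to 2.18 for Csrnp1 there.

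Genes linked to IER5 were described from a list of 12 names, of which 10 were found and 8 were tested. It holds heat shock factors, subunits of protein phosphatase 2A, the tumor suppressor Trp53 and the cell cycle phosphatase Cdc25b. The median log2 fold change of the 8 was 0.05, 0.15 and 0.10 after 1 h and 6 h at 40 °C and at 42.5 °C. By edgeR, 0 of 8 were called in each comparison with 37 °C, and by DESeq2 likewise 0. The edgeR shares over all genes were 0.334%, 3.11% and 7.51%, so 0 of 8 does not set these genes apart. At an unadjusted p under 0.05, without the fold limit, there were 4 after 1 h at 40 °C, 6 after 6 h and 6 at 42.5 °C, where 14.8%, 41% and 50.7% of all genes tested passed the same limit. On the log2 scale Hsf1 was at 0.04 (SE 0.04, adjusted p = 0.713), 0.11 (SE 0.05, adjusted p = 0.121) and -0.14 (SE 0.05, adjusted p = 0.021) in the same order. Ppp2r2a, which encodes the B55 alpha subunit, was at 0.17 (adjusted p = 0.0393), 0.22 (adjusted p = 0.00295) and 0.42 (SE 0.05, adjusted p = 6.25e-06), or 1.34-fold, at 42.5 °C.

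The genes whose pattern was most like that of Ier5l and of Csrnp1 were taken by Pearson's r of log2 CPM over 15 libraries, among 10627 genes. These libraries fall into 4 groups and the genes share library depth, so the values of r describe the pattern only. For Ier5l they were Rsrp1, a gene for an arginine- and serine-rich protein (r = 0.893), Zfp207, for a zinc finger protein (r = 0.831), the unnamed ENSCGRG00001016819 (r = 0.766), Ptprr, for a receptor-type tyrosine phosphatase (r = 0.766), and Tent4a, for a poly(A) polymerase (r = 0.762). Rsrp1 had log2 fold changes of 1.04, 0.51 and 0.69 after 1 h and 6 h at 40 °C and at 42.5 °C, and Ptprr of 0.68, 0.29 and 0.23. In both genes, as in Ier5l, the value after 1 h at 40 °C was the highest of the 3.

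For Csrnp1 the most alike genes were Areg (r = 0.990) and Hbegf (r = 0.975), which encode ligands of the EGF receptor, Smad7 (r = 0.987), an inhibitor of TGF-beta signaling, Junb (r = 0.981), an AP-1 subunit, and Tmem241 (r = 0.977). Areg had a log2 fold change of 4.83 at 42.5 °C, Smad7 of 2.66, Hbegf of 1.72, Junb of 1.49 and Tmem241 of 1.29. All 5 were below zero after 6 h at 40 °C, between -0.78 for Areg and -0.22 for Tmem241. With all 16 libraries, 3 of the 5 genes remained for Ier5l and 4 of the 5 for Csrnp1, and by Spearman's rho 3 and 1 remained.

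**Figure D4:**
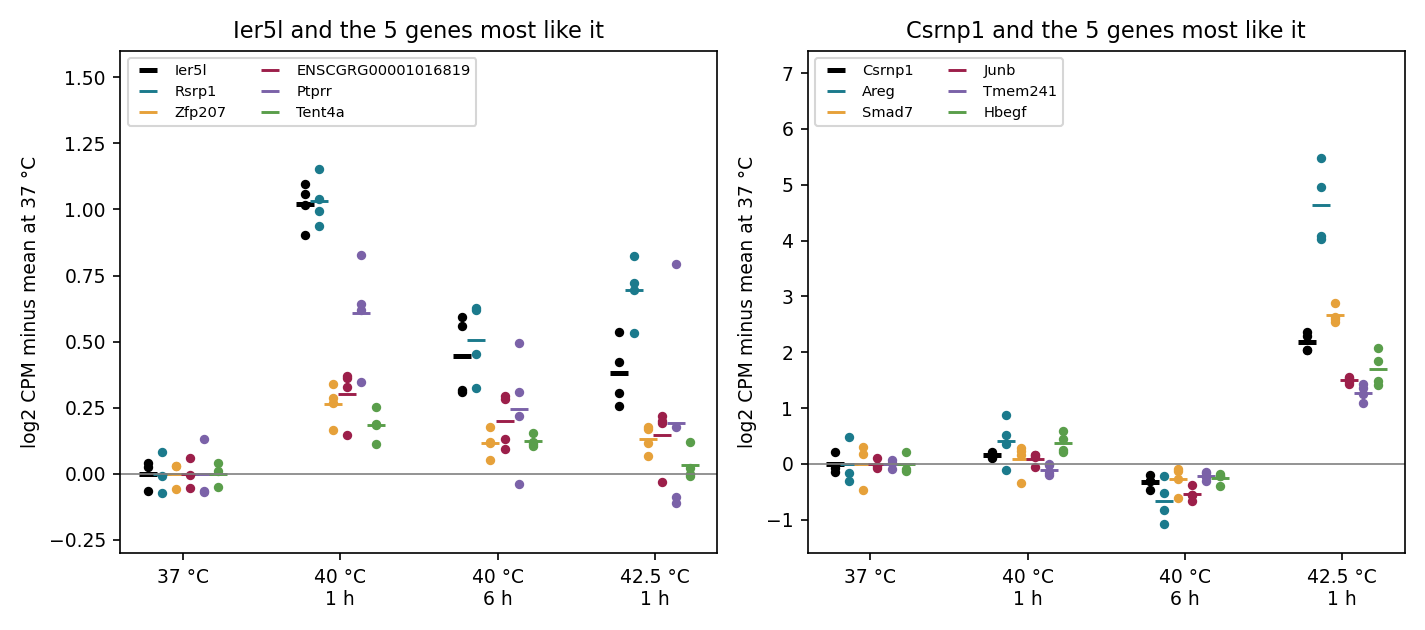
Log2 CPM in each library minus the mean of the 37 °C libraries for Ier5l (left) and Csrnp1 (right) and the 5 genes most like each; points are libraries and horizontal marks are group means (3 libraries at 37 °C, 4 in each heated group). Among the genes on the left, Rsrp1 is the closest to Ier5l at 40 °C, 1 h, and on the right all 6 genes are highest at 42.5 °C, 1 h.

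Neighbouring genes were taken by order only from RefSeq's CriGri-PICRH-1.0 annotation, which is not the build of the counts. In it, 7 neighbours of members could be tested. By edgeR, 0 of these 7 were called in each comparison with 37 °C and 0 by DESeq2. At the edgeR shares over all genes of 0.334%, 3.11% and 7.51%, 0 of 7 does not set the neighbours apart. An unadjusted p under 0.05 was reached by 1, 3 and 4 after 1 h and 6 h at 40 °C and at 42.5 °C, beside the same 14.8%, 41% and 50.7% of all genes. Ptpa, the neighbour of Ier5l, had log2 fold changes of -0.02, -0.08 and -0.12, and Ttc21a, the neighbour of Csrnp1, of 0.45, -0.26 and 0.05. Nacc1, beside Ier2, was at -0.06, -0.13 and -0.13.

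Ier3 overlaps Zc3h13 and Csrnp2 overlaps Letmd1 in that annotation, and whether the counting used strand is not given in the sources used here, so reads of the overlapping genes cannot be told apart. Zc3h13 was at log2 fold changes of -0.15, -0.08 and -0.47, and Letmd1 at -0.01, 0.24 and 0.10, in the same order.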

How the data were processed

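The authors mapped trimmed reads to the CHOK1GS_HDv1 genome and counted them per gene in CLC Genomics Workbench, from TruSeq RNA libraries read as paired ends on a NextSeq; the submitters' processing notes also name bcl2fastq. The deposited values are whole-number counts, not normalized. The annotation release, strand setting and handling of reads with several mapping places are not given in the sources used here.

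Groups were compared in R 4.3.3 with edgeR 4.0.16 (quasi-likelihood, filterByExpr, TMM, libraries of both groups compared), with 37 °C replicate D left out, and with Benjamini-Hochberg adjustment over all genes tested. The SE was the log2 fold change over the square root of F. Likeness used a prior count of 2. The script was tested on simulated counts.

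The members and gene lists were chosen with earlier results of these data known. Genes named by rule are all 7 members, fixed genes of both lists (Fos, Egr1, Atf3, Jun, Dusp1, Nr4a1, Hsf1 and Ppp2r2a; Ppp2ca was not found by name) and the 5 genes most alike to Ier5l and to Csrnp1. Other list members and the neighbours were named after their values were seen.

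Alternatives were DESeq2 1.42.0 (size factors or Wald test), no filter, all 4 controls, 1 fit over all groups, a replicate block, adjusted p alone, no TMM scaling of levels, and each library left out. All 4 controls for the list and for levels at 37 °C were added after seeing the data.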

Additional observations from a re-analysis of the deposited data

Results flagged for a closer look

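Of 24 groups of 4 libraries examined, 3 held a library far from the others by Dixon's test, which chance gives in about 1 of 20 groups. Ier2 was at 8.40 CPM in replicate C of 40 °C, 1 h, against 7.07 to 7.29 CPM in the other libraries of that group. The others were both in replicate D at 37 °C, where Ier3 was at 19.9 CPM, against 24.1 to 24.5 CPM in the other controls, and Ier5l at 8.28 CPM, against 5.33 to 5.76 CPM.

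The heated groups differed from each other at an adjusted p under 0.05 by edgeR in the following values, of which only those of Ier2 against 40 °C, 1 h also passed the limit of 1.5-fold. The log2 difference of 40 °C, 6 h from 40 °C, 1 h was -0.67 for Ier2, -0.27 for Ier3 and -0.58 for Ier5. The difference of 42.5 °C from 40 °C, 1 h was -1.19 for Ier2 and -0.50 for Ier5. The difference of 42.5 °C from 40 °C, 6 h was -0.52 for Ier2 and 0.49 for Ier3. Csrnp1, chosen for its values at 42.5 °C, lay on opposite sides of control replicates A, B and C in the libraries of 40 °C, 6 h (log2 fold change -0.34) and of 42.5 °C (2.18). That difference was not tested.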

How the results depend on the processing

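Of 312 log2 fold changes of Ier2, Ier3, Ier5 and Csrnp2 under the alternatives, 293 kept both their direction and their side of the call, 8 gained the call, 1 lost it and 10 changed sign while uncalled. Ier5l moved to 0.89, 0.30 and 0.24 against 37 °C with all 4 controls. With all 4 control libraries, 0 of the 6 members with reads, Ier5l and Csrnp1 included, were called by edgeR after 1 h at 40 °C. DESeq2 called 1, and 2 had an unadjusted p under 0.05 by edgeR. With replicate D left out, 14.8% of all genes reached that unadjusted limit. The DEGs over all genes with all 4 controls numbered 3, 218 and 639 after 40 °C for 1 h, 40 °C for 6 h and 42.5 °C, against 35, 326 and 786. With adjusted p alone, members called were 2, 5 and 6 in these comparisons, 5 between 6 h and 1 h at 40 °C, 4 between 42.5 °C and 40 °C, 1 h, and 3 between 42.5 °C and 40 °C, 6 h, and DEGs over all genes numbered 172, 3091, 4510, 1931, 3767 and 4904 in the order of the report. Between 6 h and 1 h at 40 °C, DESeq2's Wald test and no filter each called 2 members, Ier5 being added.

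With 1 library left out, 1 to 2 members were called after 6 h at 40 °C against 37 °C. Ier5 was added without 37 °C replicate B or 40 °C, 6 h replicate C, and took the place of Ier2 without 37 °C replicate C. Between 6 h and 1 h at 40 °C, Ier2 was called each time. Ier5 was added without replicate A or C of 1 h, or without replicate C of 6 h. Some uncalled values changed sign: Ier2 after 1 h at 40 °C lay between -0.06 and 0.13 and Ier5 between -0.11 and 0.22, Csrnp2 between 42.5 °C and 40 °C, 1 h from -0.10 to 0.02, and Ier5 between 42.5 °C and 40 °C, 6 h from -0.01 to 0.21. The cause was not tested. The level of Ier5l at 37 °C was 6.27 CPM with all 4 controls, and that of Ier3 was 23.1 CPM, or 24.8 CPM without TMM scaling.

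After subtracting group means, libraries of the same letter correlated with a mean r of 0.05 and of different letters with -0.02, so letters were not taken as pairs. With the letter as a replicate block, Ier2 was called in the same comparisons as without it, and Ier3, Ier5 and Csrnp2 in none. DEGs over all genes then numbered 48, 333, 717, 138, 546 and 858 in the order of the report. Ier2 and Ier5l had at most 174 counts in a library, so counting error limits their values.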
